A study of Rattus norvegicus with 4 samples.

Results

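The culture described here is the untreated control of a peroxide series in NRK-52E, a cloned epithelial line from normal rat kidney that is used as a model of the renal tubule. It was chosen by its treatment label alone, as 1 of the 4 arrays of the series. The other 3 cultures received 0.003, 0.006 or 0.009% hydrogen peroxide in medium and are not described. Per the labels, confluent cells stood for 1 h in DMEM with 0% peroxide, were rinsed, and then spent 12 h in DMEM lacking serum, so the untreated cells were serum-deprived as the treated ones were. Total RNA was labelled with Cy3 and read on a 1-colour Agilent array. With 1 culture on 1 array there was no replicate and no test, and having a single array is what limits precision.

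The renal tubule is a chain of segments, each with its own set of transporters. Proximal tubule cells take back sugars, amino acids, phosphate and filtered proteins through a brush border and a megalin-cubilin endocytic system, burn fatty acids and make glucose. The thick ascending limb, distal convoluted tubule and collecting duct recover salt and water through other carriers and channels. Epithelial cells kept in culture often lose segment-specific genes and gain genes of spreading and injured cells, and the untreated culture is also the population that would receive signals from dying neighbours, the question the series poses.

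The array carried 43379 noncontrol spots for 41012 probes, and 41011 probes were left after 78 outlier spots were removed. No spot was saturated. Signals are given as relative signal, the background-subtracted spot intensity divided by the 75th percentile of the array's noncontrol spots (an intensity of 180). A probe was called when the scanner software marked it well above background. The dimmest called probe had a relative signal of 0.0568 and the brightest probe that was not called one of 0.0817, so calls near these values are close. Of 153 negative control spots, 2 (1.31%) were called. RefSeq accessions named 8963 genes, of which 5352 were called, 59.7% of the named genes, and 3275 (36.5%) lay at or above the 75th percentile, a relative signal of 1. Over all probes, named or not, 21896 of 41011 (53.4%) were called. Each gene is given by its brightest called probe. Errors are the scanner software's spot error (median 10.0% of the signal in called genes) unless stated. They cover the measurement of spots, not the spread between cultures. For a probe printed more than once, the spot errors were combined into an error of the mean that treats spots as independent, which is smaller.

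A rank here orders spots by brightness, from 1 to 5352, and does not order transcripts by abundance, since brightness also depends on the probe. Of 1608 genes with more than 1 probe, 272 had probes that disagreed on the call. In the 1059 genes with every probe called, the brightest and dimmest probe differed by a median of 4.81-fold and by up to 1541-fold. Within a probe the array was far more repeatable: 263 probes were printed at up to 10 places, and the SD over spots of the 155 called ones had a median of 0.08 on the log2 scale.

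The brightest named genes were those of ribosomes, calcium-binding and matrix proteins, and lysosomal enzymes. S100a6, a calcium-binding protein of dividing and injured epithelia, was first with a relative signal of 829 ± 83. Ribosomal protein genes filled 38 of the 100 brightest places, led by Rpl8 at 707 ± 71, Rps6 at 686 ± 69 and Rplp1, whose 10 spots ran from 568 to 821. Tpt1, the translationally controlled tumour protein, stood at 697 ± 70 on the brightest of its 3 probes and at 77.8 on the dimmest. The ranks from 6 to 30 also held several secreted or matrix genes. Among them were biglycan (Bgn, 582 ± 58), a small collagen-binding proteoglycan, and Timp2 (505 ± 50), an inhibitor of matrix metalloproteinases. The surface glycoprotein basigin (Bsg) read 495 ± 49, the ferritin light chain Ftl1 484 ± 48, and transketolase (Tkt) of the pentose phosphate pathway 479 ± 48.

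Msln, which encodes mesothelin, a surface protein best known from mesothelium, ranked 20 at 437 ± 44. Tspan8, a tetraspanin of many epithelia, ranked 21 at 414 ± 41. The lysosomal protease cathepsin B (Ctsb) read 403 ± 40, and galectin-1 (Lgals1), a secreted lectin common in mesenchyme, ranked 30 at 346 ± 35. Among the 100 brightest probes of the whole array 39 had no gene name here, so the order covers named genes only.

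The 56 measured cytosolic ribosomal proteins were all called, as were all 17 measured housekeeping genes. The ribosomal proteins spanned relative signals from 16.8 (Rps15) to 707 (Rpl8), with a median of 189, against a median of 2.01 over all called genes. Their start sites are shown because pyrimidine-rich starts are a known mark of this gene family. The windows run from 20 bases before to 10 bases after the RefSeq start (GRCr8, sense strand, 5′ to 3′), with CTTTC and CTTCC in capitals.
Rps18, chr20:4933725-4933754, plus strand: aactacacgtcaCTTCCgctctctCTTCCa
Rpl19, chr10:83519044-83519073, plus strand: gagcccgcgaccagcaagctCTTTCCTTTC
Rpl29, chr8:115947623-115947652, plus strand: acagcgggcCTTTCtCTTTCtCTTCCggtc
Rpl31, chr9:49143091-49143120, plus strand: ccatcccacaatccctcgcgcCTTTCcttt
Rplp1, chr8:71290863-71290892, minus strand: tgcgcgcaggcgcatgtgatcCTTTCctca
Rps6, chr5:106420531-106420560, minus strand: ttcgtgacgcctcctaggcggtcggctgtg
Either motif stood on the sense strand within 20 bases of the start in 28 of the 44 ribosomal protein genes that had a promoter in the RefSeq table (63.6%). The share was 12.8% over all 27457 promoters of the table and 12.3% over called genes. Rps6 is shown as a member with neither motif in the window.

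Few genes of proximal tubule function were bright. Over the 3 proximal tubule lists together 29 of 79 measured genes were called (36.7%, against 59.7% of all named genes), and 10 (12.7%, against 36.5%) reached the 75th percentile. The same counts for markers of neurons, hepatocytes, striated muscle and germ line, tissues that the culture should not hold, were 22 of 67 called (32.8%) and 6 (8.96%) at or above the 75th percentile. These tissues differed widely: 10.0% of neuronal, 30.8% of germ line, 40.0% of hepatocyte and 57.1% of striated muscle genes were called. In a bulk culture, fewer cells that use a gene and less of its RNA in each cell cannot be told apart.

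**Figure D1:**
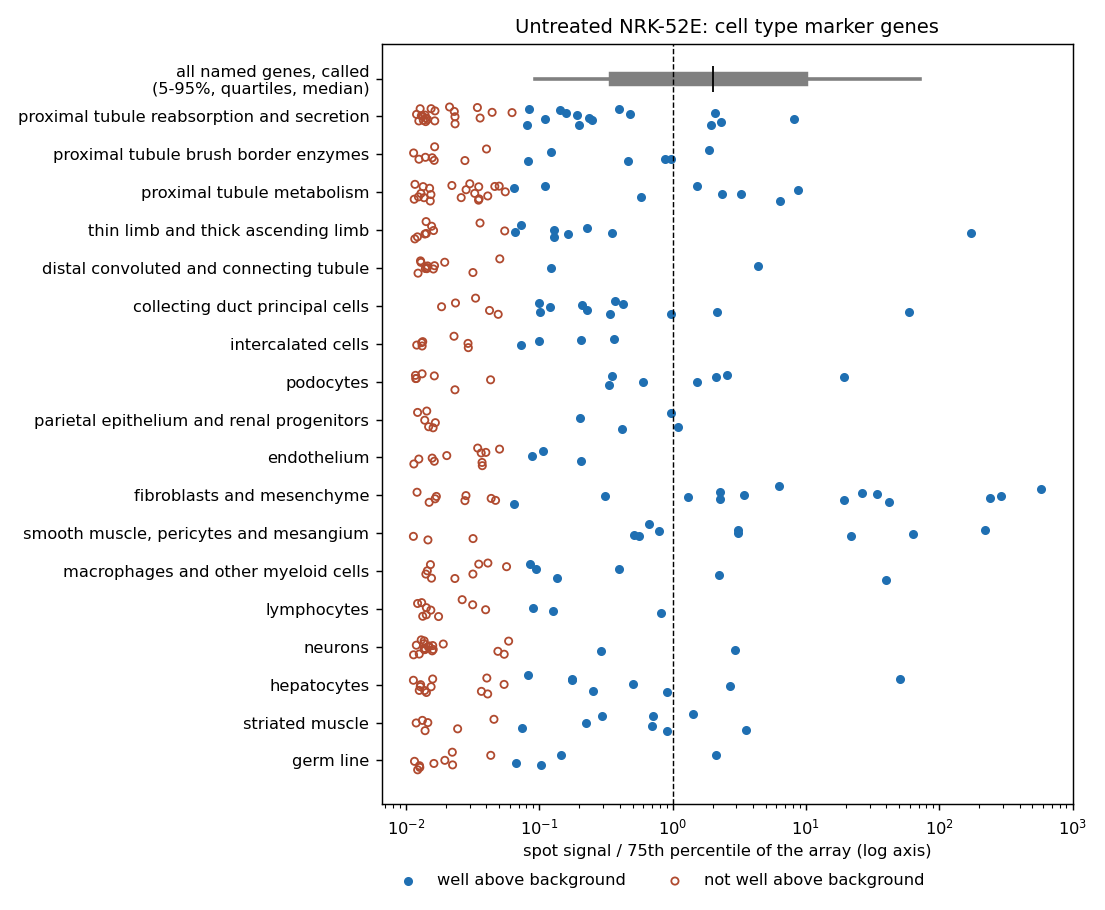
Relative signal (spot signal over the array's 75th percentile, log axis) of every measured marker gene, 1 point per gene in rows of 1 list each, filled where the gene was called and open where it was not; the grey bar gives the 5 to 95% range and quartiles of all called genes and the dashed line the 75th percentile. Fibroblast and smooth muscle markers reach far to the right of the dashed line, up to 582 for Bgn, while most proximal tubule markers lie to its left.

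Among reabsorption and secretion genes 15 of 36 were called (41.7%, against 59.7% of all named genes) and 4 reached the 75th percentile. These were Nherf1, a scaffold protein of the brush border, at 8.09 ± 0.81, the endocytic adaptor Dab2 at 2.32 ± 0.23, the cystine transporter subunit Slc7a9 at 2.09 ± 0.21, and the water channel Aqp1. Aqp1 was printed at 10 places, which read from 1.84 to 2.06 with a median of 1.92, all called. Megalin (Lrp2), the large endocytic receptor, was called at 0.0836 ± 0.0149, which ranked it 5163. That lies below the 99th percentile of negative control spots (0.0845), so with that limit Lrp2 would not be called, and its partner cubilin (Cubn) was not called. The sodium-glucose transporter Slc5a2 was called on 1 of its 2 probes, at 0.144 ± 0.019.

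The remaining 21 genes of that list were not called. They included the phosphate transporters Slc34a1 and Slc34a3, the glucose transporters Slc5a1 and Slc2a2, and the organic anion and cation transporters Slc22a6, Slc22a8 and Slc22a2, which carry many drugs into tubule cells. The extruders Slc47a1 and Abcc2 were not called either. Abcc2 was dim at each of 10 spots (0.0115 to 0.0163), and the sodium-proton exchanger Slc9a3 was called at 1 of 9 spots.

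Of 14 brush border enzymes 6 were called (42.9%, against 59.7% of all named genes). Gamma-glutamyltransferase (Ggt1), which starts the breakdown of glutathione outside the cell, read 1.88 ± 0.19, neprilysin (Mme) 0.973 ± 0.098 and aminopeptidase N (Anpep) 0.883 ± 0.089. The angiotensin-converting enzyme Ace, alkaline phosphatase (Alpl) and the meprins Mep1a and Mep1b were not called, Ace at none of 9 spots.

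Of 29 genes of proximal tubule metabolism 8 were called (27.6%, against 59.7% of all named genes). The brightest were argininosuccinate lyase (Asl, 8.74 ± 0.87), sorbitol dehydrogenase (Sord, 6.42 ± 0.64) and betaine-homocysteine methyltransferase (Bhmt), at 3.24 ± 0.32 on its brighter probe and 0.209 on the other. The gluconeogenic genes Fbp1 and G6pc1 were not called on either of their 2 probes. Pck1, the first committed enzyme of glucose synthesis, was called at 2 of the 10 spots of its brighter probe (0.0347 to 0.0811), which left the gene uncalled. Inositol oxygenase (Miox) and the cytochrome Cyp2e1 were not called, Cyp2e1 at none of 9 spots.

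**Figure D2:**
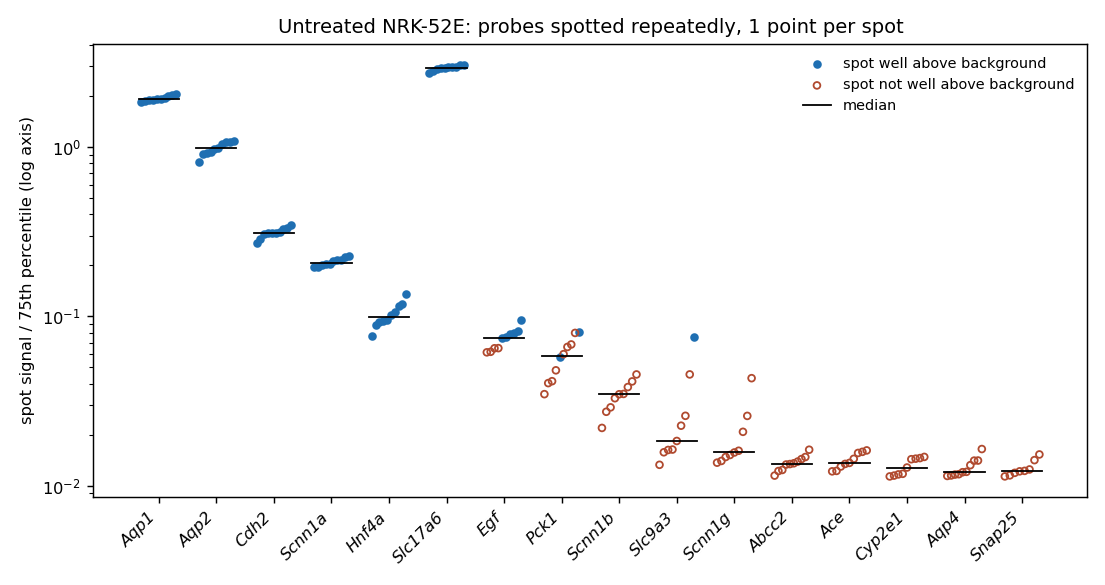
Relative signal (log axis) at each spot of 16 repeatedly printed probes, 1 point per spot, filled where the spot was called, with the median as a line. The spots of Aqp1, Aqp2, Cdh2, Scnn1a, Hnf4a and Slc17a6 were called throughout; those of Abcc2, Ace, Cyp2e1, Aqp4, Scnn1b, Scnn1g and Snap25 at no place; Egf, Pck1 and Slc9a3 were mixed.

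Of 14 measured transcription factors that specify the nephron 4 were called (28.6%, against 59.7% of all named genes). With the looser call of positive and significant against background, 8 were called, as were 77.2% of all named genes. Hnf4a, a nuclear receptor of proximal tubule and liver, read only 0.107 on its brightest probe. Another of its probes was called at each of 10 spots, but between 0.0766 and 0.135. The Iroquois gene Irx2 read 1.60 ± 0.16, Osr2 0.938 ± 0.095 and the POU factor Pou3f3 0.180 ± 0.022. Pax8, Lhx1, Gata3 and Wt1 were not called, each on its only probe. Pax8, an early and lasting factor of renal epithelium, had a relative signal of 0.0122, at the floor of the array. Only 3 Hox genes had a named probe, and of these Hoxb7, active in the ureteric bud lineage, read 1.72 ± 0.17.

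Later segments were no brighter. Over 4 lists for the loop of Henle, distal and connecting tubule, principal cells and intercalated cells, 24 of 57 genes were called (42.1%). The share of all named genes called was 59.7%. The 75th percentile was reached by 4 of the 57 (7.02%, against 36.5%). Uromodulin (Umod), the hallmark protein of the thick ascending limb, and the thiazide-sensitive cotransporter Slc12a3 of the distal convoluted tubule were not called. The small heat shock protein Cryab, a marker of the thin limbs and medulla that many stressed cells also use, read 173 ± 17. Of 14 distal convoluted and connecting tubule genes 2 were called, the calcium pump Atp2b1, which most cells express, at 4.38 ± 0.44 and the kinase Wnk4 at 0.123 ± 0.019.

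Of 16 principal cell genes 11 were called (68.8%, near the 59.7% of all named genes), and 8 when every probe of a gene had to be called. The 75th percentile was reached by 2 of them (12.5%, against 36.5%), the simple-epithelium keratin Krt8 and the kinase Sgk1. The vasopressin-regulated water channel Aqp2 was called at each of 10 spots, from 0.816 to 1.08. The sodium channel subunit Scnn1a was called at each of 10 spots, from 0.194 to 0.227, while its second probe was not called, and the partner subunits Scnn1b and Scnn1g were called at none of 9 spots each. The vasopressin receptor Avpr2 read 0.0998 ± 0.016, the cortisol-inactivating enzyme Hsd11b2 0.341 ± 0.036 and the water channel Aqp3 0.421 ± 0.044. Of 11 intercalated cell genes 4 were called (36.4%, against 59.7%) and none reached the 75th percentile.

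**Figure D3:**
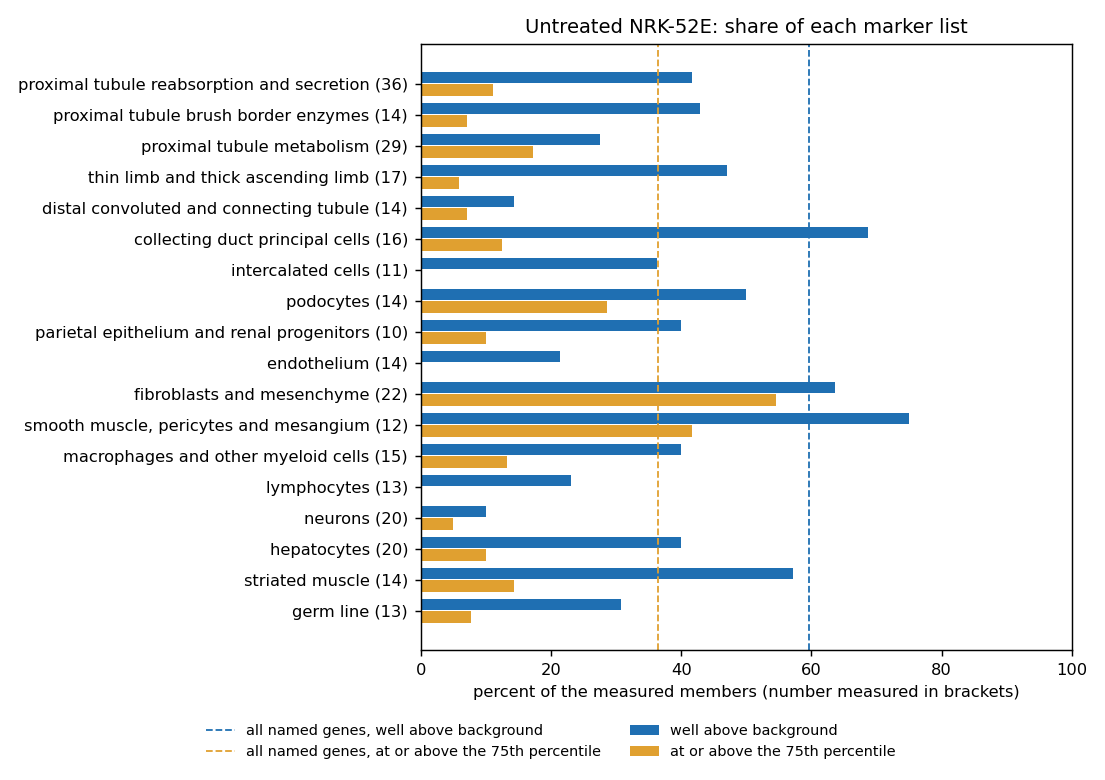
Percent of the measured members of each marker list that were well above background (blue) or at or above the 75th percentile (orange); dashed lines mark the shares of all named genes, 59.7% and 36.5%. In the orange bars, 2 lists pass the orange line, fibroblasts and mesenchyme at 54.5% and smooth muscle, pericytes and mesangium at 41.7%.

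Genes of mesenchyme and contractile cells were the brightest of the marker lists. Of 35 listed fibroblast and mesenchyme genes 22 were measured, and 14 of these were called (63.6%, near the 59.7% of all named genes). At or above the 75th percentile were 12 (54.5%, against 36.5%). The list's called members had a median relative signal of 12.8. Besides Bgn, the matrix glycoprotein Sparc read 291 ± 29, S100a4 239 ± 24, the intermediate filament vimentin (Vim) 42.3 ± 4.2, fibronectin (Fn1) 34.2 ± 3.4 on its brighter probe and 5.24 on the other, and the collagens Col3a1 and Col5a1 26.3 ± 2.6 and 19.3 ± 1.9. The repressors of the epithelial programme Snai1 and Twist1 read 6.29 ± 0.63 and 1.31 ± 0.13, and the PDGF receptor Pdgfrb 3.43 ± 0.34. Not called were Dcn, Lum, Thy1, Prrx1, Fap, Snai2, Zeb2 and Fbn1, among them the fibroblast markers decorin and Thy1.

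Of 12 smooth muscle, pericyte and mesangial genes 9 were called and 5 reached the 75th percentile. They were beta-tropomyosin (Tpm2, 219 ± 22, with 12.4 on its dimmest of 3 probes), the receptor Notch3 (63.8 ± 6.4), smooth muscle gamma-actin (Actg2, 21.9 ± 2.2), the pericyte proteoglycan Cspg4 (3.09 ± 0.31) and transgelin (Tagln, 3.07 ± 0.31). Calponin (Cnn1), Rgs5 and myocardin (Myocd), more specific to smooth muscle and pericytes, were not called. Among genes of endothelium, myeloid cells and lymphocytes, Pecam1, Csf1r, Itgam, Cd3g and Cd79b were not called, whereas the T cell gene Cd3d was. By list, 3 of 14 endothelial, 6 of 15 myeloid and 3 of 13 lymphocyte genes were called (21.4, 40.0 and 23.1%). Together, markers of these cells gave 12 of 42 called (28.6%) and 2 (4.76%) at or above the 75th percentile, against 59.7 and 36.5% of all named genes. Those 2 were Cd14, the lipopolysaccharide co-receptor, at 39.7 ± 4.0, and the lysosomal protein Cd68 at 2.23 ± 0.22.

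The epithelial label was met in part. E-cadherin (Cdh1), the main adhesion molecule of most epithelia, was not called on its only probe (0.0493 ± 0.0123), nor was the epithelial adhesion molecule Epcam (0.0152). N-cadherin (Cdh2), which proximal tubule epithelium and mesenchyme both use, was called at each of 10 spots, from 0.273 to 0.347. The kidney-specific cadherin Cdh16 was called on 1 of 2 probes, at 0.191 ± 0.024. Of 12 cadherins and catenins 8 were called (66.7%, near the 59.7% of all named genes). The 75th percentile was reached by 2 (16.7%, against 36.5%). Among junction proteins, plakoglobin (Jup) read 38.5 ± 3.9, the tight junction protein F11r 24.2 ± 2.4, the polarity protein Pard3 13.6 ± 1.4 and occludin (Ocln) 1.15 ± 0.12. In that list 8 of 11 measured members were called (72.7%, against 59.7% of all named genes), but 17 of its 28 genes had no named probe.

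Claudins, which set the ion selectivity of tight junctions, were called in 5 of 13 cases (38.5%, against 59.7% of all named genes). Only Cldn9 reached the 75th percentile (3.62 ± 0.36). Cldn3 stood at 0.135 ± 0.019, and Cldn1, Cldn4, Cldn7 and Cldn8 were not called. Of the keratins, Krt8 was bright at 59.3 ± 5.9 and Krt14, a keratin of stratified epithelia, read 10.5 ± 1.1. Krt18, the partner with which Krt8 forms filaments, read 0.101 ± 0.016 on its brighter probe and 0.0646 on the other. Krt19 read 0.369 ± 0.039, and Krt5, Krt17 and Krt20 were not called.

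Genes that mark injured tubules in vivo were bright in the untreated culture. Of 25 measured injury markers 20 were called (80.0%) and 16 (64.0%) reached the 75th percentile, against 59.7 and 36.5% of all named genes. The called members had a median relative signal of 50.8. The list was chosen with earlier results of these data known, so these shares describe its members and are not an independent comparison. Besides S100a6 and Timp2, galectin-3 (Lgals3) read 336 ± 34, Anxa2 227 ± 23, the secreted chaperone clusterin (Clu) 118 ± 12 and the adhesion molecule Icam1 31.3 ± 0.99. Osteopontin (Spp1), a secreted matrix protein, was called at each of 10 spots between 241 and 271, and Timp1 at each of 10 between 135 and 147. Havcr1, which encodes kidney injury molecule 1, was not called (0.0229), and the iron-binding lipocalin Lcn2 read 1.44 ± 0.14. Several of these genes, such as B2m and Cst3, are used by most cells, and Vim also stands in the mesenchyme list.

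Glycolysis and lactate export genes were called in 22 of 26 cases (84.6%, against 59.7% of all named genes), with Pgam1 at 374 ± 37, Eno1 at 252 ± 25, Gapdh at 157 ± 5 and aldolase A (Aldoa) at 120 ± 12, while the testis-type gene Ldhc was not called. Among fatty acid oxidation genes 15 of 22 were called (68.2%, against 59.7% of all named genes). All 15 were at or above the 75th percentile (68.2%, against 36.5%). They included the dehydrogenase Acadl at 59.4 ± 5.9 and the carnitine transferase Cpt1a, with 10 spots from 2.90 to 3.48. Not called were Ppara and Ppargc1a, regulators of that programme, the uptake and binding genes Cd36, Fabp1, Fabp3 and Fabp4, and Ehhadh.

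Of 26 genes for the removal of peroxide 23 were called before any exposure (88.5%, against 59.7% of all named genes). Superoxide dismutase 1 (Sod1) read 211 ± 21, thioredoxin (Txn1) 141 ± 14, peroxiredoxin 1 (Prdx1) 134 ± 13, Prdx2 60.4 ± 6.0 and glutathione peroxidase 1 (Gpx1) 47.4 ± 4.7. Catalase (Cat), the peroxisomal enzyme that splits peroxide directly, read 0.237 ± 0.027. The glutathione-synthesis subunit Gclc read 0.107 ± 0.018 and its partner Gclm was not called, and neither was Gpx3, which proximal tubules secrete. The inducible haem oxygenase Hmox1 was called at each of 10 spots, from 0.711 to 0.860.

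Cell cycle and replication genes were called in 23 of 24 cases (95.8%, against 59.7%) after 12 h without serum at confluence. Cyclin D1 (Ccnd1) read 57.3 ± 5.7, Cdk1 38.2 ± 3.8, the mitotic kinase Plk1 16.5 ± 1.7 and the sliding clamp Pcna 10.9 ± 1.1. The inhibitor p27 (Cdkn1b) ran from 16.9 to 19.1 over 10 spots, and p21 (Cdkn1a) from 2.57 to 2.78 over 10 spots of 1 probe while its other probe was not called. Cdkn2a stood at 0.0996 ± 0.015 and Cdkn2b was not called. Myc read between 1.49 and 1.74 over 10 spots.

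**Figure D4:**
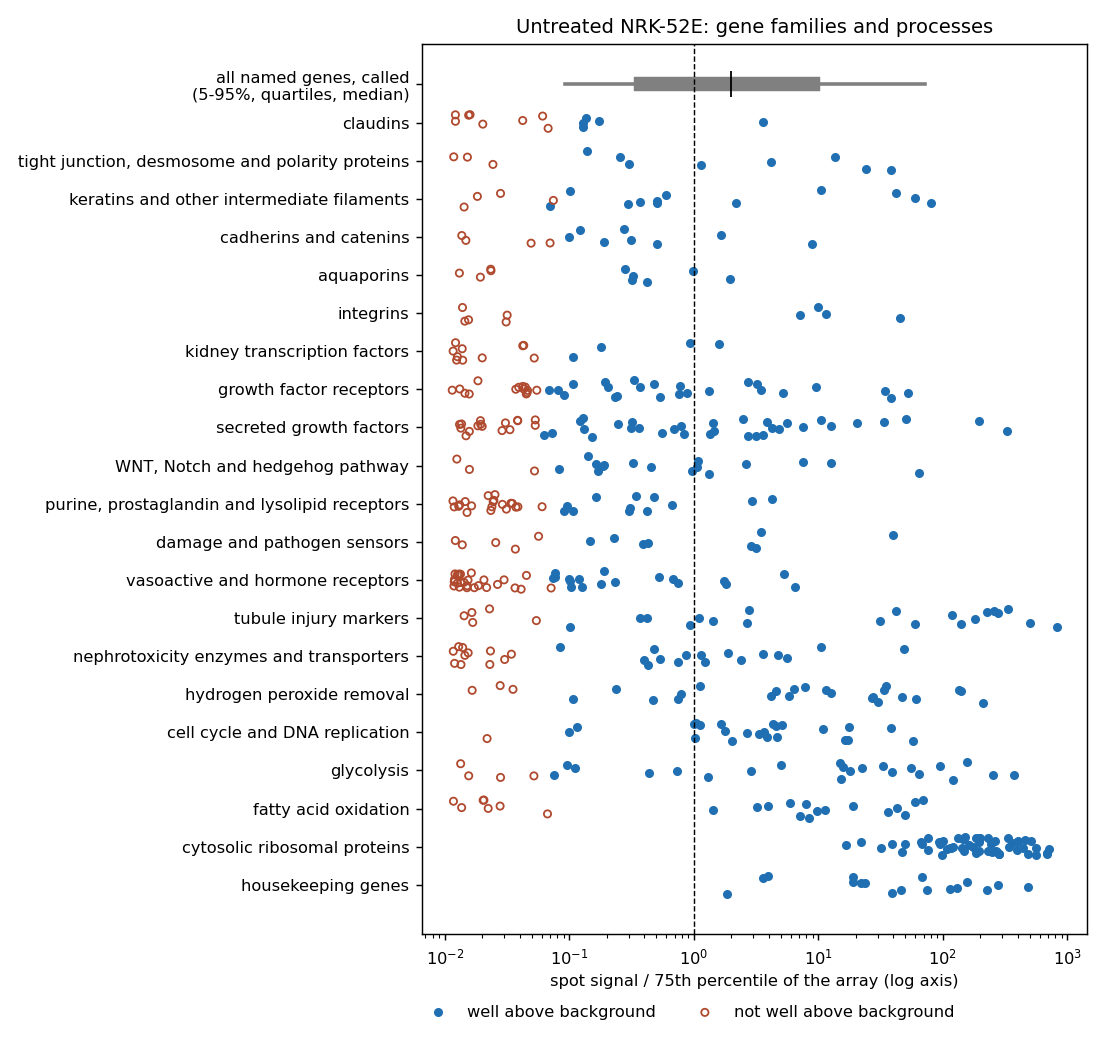
Relative signal (log axis) of every measured member of the gene family and process lists with at least 9 measured genes, drawn as in the plot of marker genes. Ribosomal protein genes all lie above 16, and 21 of 24 cell cycle genes at or above the dashed line, whereas hormone receptors and receptors for purines, prostaglandins and lysolipids lie mostly below it or were not called.

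Receptors decide which factors from dying neighbours an untreated cell could sense. Of 38 growth factor and cytokine receptors 24 were called (63.2%, near the 59.7% of all named genes) and 9 reached the 75th percentile (23.7%, against 36.5%). The brightest were the mannose 6-phosphate receptor Igf2r (52.4 ± 5.2), the TWEAK receptor Tnfrsf12a (38.1 ± 3.8) and the TNF receptor Tnfrsf1a (34.4 ± 3.4). The EGF receptor (Egfr) read 5.22 ± 0.52 on one probe and from 1.04 to 1.21 over 10 spots of the other, and Erbb2 ran from 3.07 to 3.44 over 10 spots. Erbb3 and Erbb4, the other members of that family, were not called, nor was the HGF receptor Met (0.0185). Igf1r ran from 1.24 to 1.43 over 10 spots, while the insulin receptor Insr was not called.

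Of 32 receptors for purines, prostaglandins, lysolipids and proteases 12 were called (37.5%, against 59.7% of all named genes) and 2 reached the 75th percentile (6.25%, against 36.5%), the sphingosine 1-phosphate receptors S1pr2 (4.22 ± 0.42) and S1pr5 (2.93 ± 0.29). With the looser call 25 of the 32 were called. The ATP-gated channel P2rx4 read 0.663 ± 0.067, the protease receptor F2rl1 0.480 ± 0.050 and the prostaglandin E2 receptor Ptger4 0.309 ± 0.033. No P2Y receptor of the 6 measured was called. Of 13 damage and pathogen sensors 8 were called (61.5%, near the 59.7% of all named genes). Among them were Tlr4 (3.48 ± 0.35), Tlr6 (3.18 ± 0.32) and Tlr3 (2.87 ± 0.29), and Tlr2 was not called. Of 44 vasoactive and hormone receptors 18 were called (40.9%, against 59.7% of all named genes). The glucocorticoid receptor Nr3c1 ran from 5.98 to 7.16 over 10 spots, while the angiotensin receptors Agtr1a, Agtr1b and Agtr2 and the parathyroid hormone receptor Pth1r, a proximal tubule receptor, were not called.

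Of 49 measured growth factor genes 33 were called (67.3%) and 19 (38.8%) reached the 75th percentile, near the 59.7 and 36.5% of all named genes. Progranulin (Grn) read 325 ± 33, and the matricellular protein Ccn2 ran from 181 to 211 over 10 spots. Tgfb3 read 33.8 ± 3.4, the lymphangiogenic factor Vegfc 20.3 ± 2.0 and Pdgfa 12.6 ± 1.3. Among ligands of the EGF receptor, amphiregulin (Areg) read 7.47 ± 0.75, Hbegf 5.59 ± 0.56 and Tgfa 0.840 ± 0.085, and Ereg and Btc were not called. Egf itself was called at 6 of 10 spots, from 0.0613 to 0.0947. Gdnf gave 50.4 ± 5.0 on 1 probe and was called at none of 10 spots of its other probe (0.0125 to 0.0165). Hgf, Fgf7, Il6 and Gdf15 were not called.

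Called and uncalled genes differed in the CpG content of their promoters. CpG dinucleotides are depleted from most of a mammalian genome and kept in the islands at the starts of widely expressed genes. The ratio of observed to expected CpG was computed over the 300-base promoter of the 7287 named genes found in the RefSeq table, of which 60.3% were called. The share called was 23.7% (335 of 1411, Wilson 95% interval 21.6 to 26.0%) in promoters with a ratio under 0.2. It was 33.8, 58.8, 77.8 and 84.8% in the next 4 bins, and 91.2% (581 of 637, 88.8 to 93.2%) at 1.0 and over. The intervals cover counting error only, and genes are not independent replicates.

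**Figure D5:**
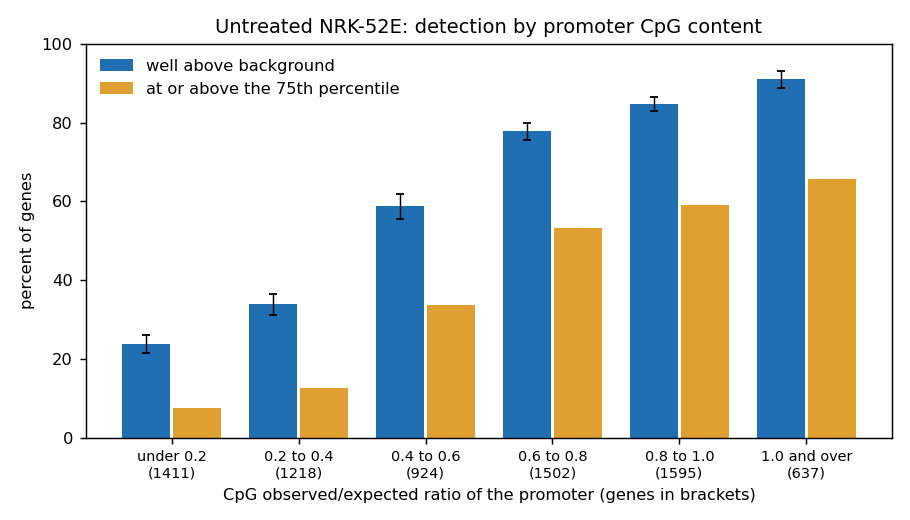
Percent of genes called (blue, with Wilson 95% intervals) and at or above the 75th percentile (orange) in 6 bins of the CpG observed to expected ratio of the promoter, number of genes in brackets. Blue bars go from 23.7% in the lowest bin to 91.2% in the highest, and orange bars from 7.51 to 65.6%.

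The proximal tubule lists lay on the CpG-poor side, with a median ratio of 0.33 over 68 promoters against 0.62 over all named genes. Of their 40 genes with a ratio under 0.4, 11 were called. Over all 2629 named genes with such promoters the share called was 28.4%. Of the 28 proximal tubule genes with a higher ratio 15 were called, beside a share of 78.3% over all 4658 named genes with such promoters. The ribosomal protein promoters had a median ratio of 0.89. Promoters of 4 genes of the lists above are printed, a bright and a dim or uncalled gene from either side of a ratio of 0.4. Each line gives the 250 bases before the RefSeq start on the sense strand of GRCr8, with every CG in capitals.
Timp2, chr10:104089215-104089464, minus strand: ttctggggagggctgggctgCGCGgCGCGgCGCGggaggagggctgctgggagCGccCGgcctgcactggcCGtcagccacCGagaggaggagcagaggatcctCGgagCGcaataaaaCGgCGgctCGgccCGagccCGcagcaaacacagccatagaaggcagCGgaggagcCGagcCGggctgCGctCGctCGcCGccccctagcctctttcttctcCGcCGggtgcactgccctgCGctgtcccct
Lrp2, chr3:74754536-74754785, minus strand: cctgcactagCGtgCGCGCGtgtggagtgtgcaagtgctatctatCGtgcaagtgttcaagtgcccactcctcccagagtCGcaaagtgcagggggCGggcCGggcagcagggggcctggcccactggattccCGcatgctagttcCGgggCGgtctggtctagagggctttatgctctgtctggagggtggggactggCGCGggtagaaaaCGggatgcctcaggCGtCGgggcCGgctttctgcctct
Sparc, chr10:40038817-40039066, minus strand: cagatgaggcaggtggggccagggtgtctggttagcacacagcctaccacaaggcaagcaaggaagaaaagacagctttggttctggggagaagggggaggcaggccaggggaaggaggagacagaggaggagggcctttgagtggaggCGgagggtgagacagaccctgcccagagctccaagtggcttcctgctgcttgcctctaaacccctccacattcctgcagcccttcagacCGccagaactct
Havcr1, chr10:31629528-31629777, plus strand: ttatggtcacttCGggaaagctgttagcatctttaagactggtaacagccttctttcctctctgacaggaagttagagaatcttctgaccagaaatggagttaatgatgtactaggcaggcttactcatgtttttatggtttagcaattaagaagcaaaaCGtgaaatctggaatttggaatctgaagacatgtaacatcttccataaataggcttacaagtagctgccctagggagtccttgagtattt
Timp2, with 27 CG in these bases, ranked 11, while Lrp2, with 17, was called at 0.0836 and ranked 5163. Sparc, with 2 CG, ranked 42 at 291 ± 29, and Havcr1, also with 2, was not called.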

How the data were processed

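Per the file headers, the authors read the 1-colour array (design 014879) by Feature Extraction version 10.7.3.1 under protocol GE1_107_Sep09. The deposited spot intensity is linear, background-subtracted and detrended, and arrays were not scaled to each other. Values in the deposited series table are a linear ratio: for 100% of probes the control column equalled the mean signal over the array's median (tolerance 1e-06), and its median was 0.962. It served as an alternative.

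Here, control and outlier spots were left out, log2 signals were averaged per probe and divided by the 75th percentile. A probe was called when most of its spots were well above background, and a gene when at least 1 probe was. RefSeq accessions on GRCr8 named 10835 probes (26.4%); other probes are not described, and some genes are not reported here. The array design is older (rn4), so no probe positions are given. Python 3.11.15, pandas 2.3.3, R 4.3.3 and limma 3.58.1 (normexp alternative) were used. Background is the share of all named genes. Genes named are the 30 brightest and members of 41 lists. Members and lists were chosen with earlier results of these data known, so a list's difference from the background is not an independent result. Alternatives changed the call, the probe rule, outlier spots, background correction, scaling and the source of values.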

Additional observations from a re-analysis of the deposited data

How the results depend on the processing

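The count of called genes depended on how a call was made. With the looser call, positive and significant against background, 6917 named genes (77.2%) were called in place of 5352. Principal cell genes went from 11 to 16 of 16. The list counts that changed by more than 1.5 times are given next. They became 24 of 36 for proximal tubule reabsorption and secretion, 20 of 29 for proximal tubule metabolism and 6 of 14 for distal convoluted and connecting tubule. They became 7 of 11 for intercalated cells, 11 of 14 for endothelium, 11 of 15 for myeloid cells and 7 of 13 for lymphocytes. They were also 7 of 20 for neurons, 13 of 20 for hepatocytes, 8 of 13 for germ line, 9 of 13 for claudins, 8 of 14 for kidney transcription factors and 25 of 32 for purine, prostaglandin and lysolipid receptors. The share called by promoter CpG ratio became 52.09% under 0.2 and 97.33% at 1.0 and over. When every probe of a gene had to be called, 5080 genes were, with 5 for thin limb and thick ascending limb, 5 for cadherins and catenins and 2 for parietal epithelium and progenitors. A limit at the 99th percentile of negative control spots gave 5158 genes, and keeping outlier spots 5352; neither moved the count of any list by more than 1.5 times. Of the 30 brightest genes, 30 stayed among the 30 brightest with array median scaling and with the deposited value table, 27 with normexp on median signals (chosen after seeing the data) and 25 with the median over probes. The count at or above the 75th percentile was 3144 with the median over probes and 3288 with normexp, both also chosen after seeing the data. By list, it went from 1 to 2 with normexp for brush border enzymes and for aquaporins. With the median over probes it went from 2 to 1 for cadherins and catenins and from 1 to 0 for parietal epithelium and progenitors. Other lists changed by at most 1.5 times. Normexp on mean signals and naming by symbols in the scanner file were not run, since the columns are not in the file used here. No paired analysis was possible because each group has 1 sample. Signal near background limits what can be called: an uncalled gene may still be transcribed, and 1 probe stands for most genes.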

Other observations

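Several genes best known from other organs were called in the untreated culture, and were chosen for mention after their values were seen. Arginase 1 (Arg1), the liver enzyme of the urea cycle, read 50.6 ± 5.1 and ranked 383. Of the same hepatocyte list 8 of 20 genes were called (40.0%, against 59.7% of all named genes), and Alb, Apob, Ttr, Cps1 and Tat were not. The vesicular glutamate transporter Slc17a6 was called at each of 10 spots, from 2.75 to 3.07, while Snap25, Syt1 and Stmn2 were among the 18 of 20 neuronal genes that were not called. The cardiac myosin Myh6 read 3.56 ± 0.36 and the cardiac and slow muscle myosin Myh7 1.42 ± 0.14. Of 14 striated muscle genes 8 were called (57.1%, near the 59.7% of all named genes), and Ckm, Myog and Myod1 were not. The T cell receptor chain gene Cd3d read 0.820 ± 0.084 while Cd3g was not called. Whether these probes detect only the named transcript was not tested.

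Developmental pathway genes outside the nephron lists were also present. Of 19 measured WNT, Notch and hedgehog genes 16 were called (84.2%) and 7 (36.8%) reached the 75th percentile, against 59.7 and 36.5% of all named genes. Fzd2 read 12.6 ± 1.3 and Fzd1 7.56 ± 0.76, both receptors for WNT proteins, the ligand Wnt4, active in nephron formation, 2.60 ± 0.26 and Wnt5a 1.07 ± 0.11. Of the 9 measured integrins, 44.4% were called (against 59.7%): Itga1 (45.2 ± 4.5), Itga7 (11.6 ± 1.2), Itgb1 (median 9.91 over 10 spots) and Itgb4 (7.17 ± 0.72). Of the 8 measured basement membrane and matrix genes 7 were called (87.5%, against 59.7%), including agrin (Agrn, 55.6 ± 5.6) and laminin beta 2 (Lamb2, 47.5 ± 4.7). Among 14 podocyte genes 7 were called, with the actin crosslinker Actn4 at 19.1 ± 1.9 and podocalyxin (Podxl) at 1.52 ± 0.15, and Nphs1 was not called. Of 10 measured aquaporins 6 were called (60.0%), and of 10 parietal epithelium and progenitor genes 4 (40.0%), against the same 59.7%. Of 27 genes important in nephrotoxicity 16 were called (59.3%, as were 59.7% of all named genes), led by glutathione transferase Gstp1 (49.1 ± 4.9) and metallothionein Mt1 (10.6 ± 1.1).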
